A study of Rattus norvegicus with 6 samples.

Results

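Rat chromosome 8 was examined for its contacts with a gene promoter on chromosome 13, as mapped by 4C-seq in cardiac endothelial cells. All 37057 EcoRI fragments that the deposited tables list on chromosome 8 of rat genome build rn5 were taken, out of 759990 fragments on the 20 chromosomes other than 13. They run from position 0 to 132457389 and are the same in all 6 libraries. In 4C-seq, chromatin is fixed and cut with a restriction enzyme, here EcoRI. The cut ends are ligated, and whatever became joined to 1 chosen fragment, the viewpoint, is amplified and sequenced. A fragment is called captured here when the scores show it among the fragments joined to the viewpoint. The tables give positions and scores only, so the labelled cell type could not be checked against markers.

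There were 3 libraries of SS13BN cells, strain SS-13BN/Mcwi, and 3 of SS cells, strain SS/JrHsdMcwi. SS is the Dahl salt-sensitive rat. SS13BN is a consomic strain that carries chromosome 13 of the Brown Norway rat on the SS background, so the viewpoint comes from the Brown Norway rat in SS13BN and from the SS rat in SS, while chromosome 8 is of SS origin in both. Cells of both strains were at passage 2, from males and females combined, and were fixed in 2% formaldehyde for 10 min. Nothing in the labels tells whether a strain's libraries come from separate animals or cultures. The p-values below therefore measure the spread between these libraries only, and that spread may be technical.

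Chromosomes occupy separate territories in the nucleus, and contacts between 2 chromosomes are far rarer than contacts within one. Such contacts are spread over large stretches, because regions of similar chromatin activity tend to share the same part of the nucleus whichever chromosome they lie on. In rodents, gene-dense and active stretches usually meet one another more often than gene-poor ones. Rat chromosome 8 corresponds for the most part to mouse chromosome 9. The gene annotation at hand was of another build, so no genes were placed in the windows described here.

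The promoter contacted chromosome 8 slightly more often than the other chromosomes in all 6 libraries. In SS13BN 1, SS13BN 2 and SS13BN 3, 11.0% (95% Wilson interval 10.7% to 11.4%), 19.2% (18.8% to 19.6%) and 9.20% (8.91% to 9.50%) of the fragments of chromosome 8 were captured. In SS 1, SS 2 and SS 3 these shares were 13.1% (12.8% to 13.5%), 10.9% (10.5% to 11.2%) and 12.9% (12.5% to 13.2%). The intervals cover counting error only. The captured fragments of chromosome 8 numbered from 3410 in SS13BN 3 to 7102 in SS13BN 2, so the libraries differ more than 2-fold in depth and levels are given below relative to each library's own capture.

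Relative to the other chromosomes outside 13, capture on chromosome 8 was 1.12, 1.11 and 1.05 times as high in SS13BN 1 to 3 and 1.07, 1.09 and 1.09 times in SS 1 to 3. All 6 values lie above 1. Their geometric mean was 1.09, with an exact two-sided sign-flip p of 0.03125 over the 6 libraries, which is the smallest that 6 libraries allow. Lying on 1 side of 1 in all libraries was common, since 7 of the 20 chromosomes lay above 1 in all 6 and another 6 lay below, so the test does not set chromosome 8 apart. Ranked by this measure, chromosome 8 had rank 5 of the 20 chromosomes by its mean of 1.09 ± 0.0244 (SD, n = 6), and in single libraries its rank ran from 5 to 7. The next below in that order, chromosomes 20 and 5, had means of 1.09 ± 0.0542 and 1.08 ± 0.0533 and differed from it by less than their spread, and chromosome 19, next above, had 1.14 ± 0.0387 (SD, n = 6 each). Against the capture expected from fragment length, which on the other chromosomes is higher for longer fragments, the geometric mean was 1.07, again with an exact sign-flip p of 0.03125.

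**Figure D1:**
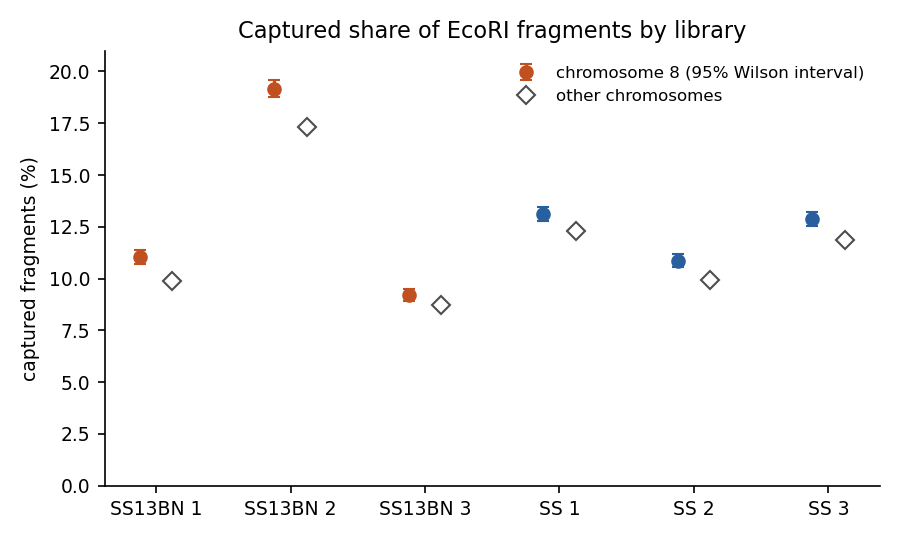
Captured share of EcoRI fragments (percent, vertical axis) in each library, for chromosome 8 (filled circles, bars are 95% Wilson intervals) and for the other chromosomes outside 13 (open diamonds). Chromosome 8 lies above the other chromosomes in all 6 libraries, at 19.2% against 17.3% in SS13BN 2 and at 10.9% against 9.95% in SS 2.

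Capture was highest in 1 broad stretch. From 45 to 70 Mb, 1.51 ± 0.152 times (SD, n = 3) each library's overall share was captured in SS13BN and 1.52 ± 0.0859 times (SD, n = 3) in SS. With the expectation set by fragment length these levels were 1.45 ± 0.150 in SS13BN and 1.46 ± 0.0910 in SS. This stretch holds 16.7% of the fragments of chromosome 8 and held 23.3% ± 1.70 of its captured fragments in SS13BN and 23.7% ± 1.39 in SS. Its bounds were chosen after the values were seen, so no test is given. With it left out, the remainder of chromosome 8 had a relative capture of 0.999 and lay above 1 in 3 of 6 libraries, although leaving out the highest stretch of any chromosome must lower its level.

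Within that stretch the first 5 Mb stood highest. From 45 to 50 Mb, relative capture was 2.23, 1.83 and 1.78 in SS13BN 1 to 3 and 2.04, 1.95 and 1.72 in SS 1 to 3. This was the highest of the 27 windows of 5 Mb in all 6 libraries. The 4 windows that follow it, up to 70 Mb, had means of 1.42, 1.38, 1.38 and 1.52 over the 6 libraries, and no library fell below 1.17 in any of them.

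The window from 40 to 45 Mb, just before the highest one, had a relative capture of 0.782, 0.788 and 0.682 in SS13BN 1 to 3 and 0.760, 0.890 and 0.832 in SS 1 to 3. Of its 1406 fragments, 390 lie in a run that was captured in no library. Without that run, left out after the values were seen, it stood at 1.08, 1.09 and 0.943 in SS13BN 1 to 3 and 1.05, 1.23 and 1.15 in SS 1 to 3, so its low level rested on the run. Beyond the run, mean relative capture in 500 kb windows was already 1.44 at 44000001 and 1.59 at 44500001. On the upper side capture was 1.18 ± 0.143 (SD, n = 6) at 70 to 75 Mb and 1.01 ± 0.0995 at 75 to 80 Mb. SS13BN 3, at 0.951, was the only library below 1 at 70 to 75 Mb.

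The rest of the chromosome held a second, weaker rise and several poor stretches. From 110 Mb to the end, a bound not set in advance, relative capture was 1.24 ± 0.0348 (SD, n = 3) in SS13BN and 1.22 ± 0.0630 (SD, n = 3) in SS. Its fragments had a median of 2730 bp. With the expectation set by fragment length it stood at 1.18 ± 0.0380 in SS13BN and 1.16 ± 0.0573 in SS. The highest 5 Mb window there, at 125 to 130 Mb, had a relative capture of 1.38 ± 0.126 (SD, n = 6). From 30 to 35 Mb relative capture was 1.25 ± 0.0734. The lowest 5 Mb window lay at 15 to 20 Mb, with 0.700 ± 0.0534 (SD, n = 6), and it was the lowest in 5 of the 6 libraries. The exception was SS13BN 3, whose lowest was at 40 to 45 Mb with the empty run counted. The window at 15 to 20 Mb also holds runs captured in no library, of 178 and 51 fragments, which were counted. Its median fragment length was 1522 bp, and with the expectation set by fragment length its mean was 0.757. The 2 ends of the chromosome differed. The first 3 Mb reached 0.838 ± 0.0332 in SS13BN and 0.812 ± 0.0963 in SS, and the last 3 Mb reached 1.10 ± 0.105 in SS13BN and 1.14 ± 0.0988 in SS. Fragments were shorter in the first 3 Mb, with a median of 1406 bp against 2265 bp over the chromosome, and with the expectation set by fragment length the first 3 Mb stood at 0.931 ± 0.0302 in SS13BN and 0.905 ± 0.120 in SS.

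**Figure D2:**
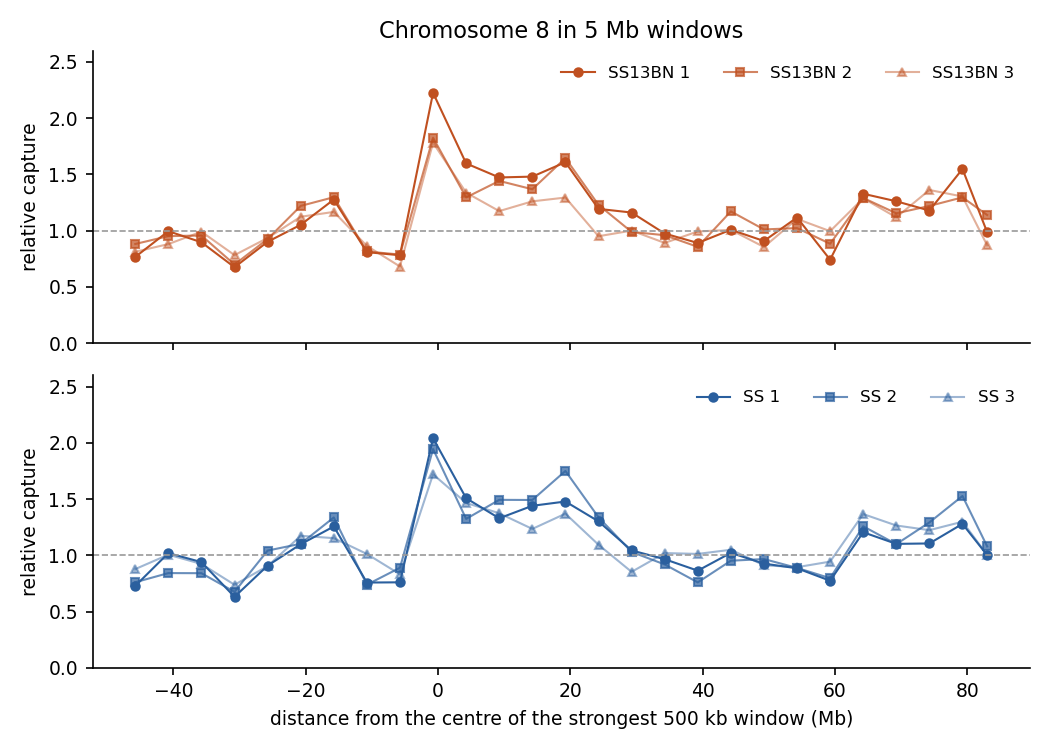
Relative capture (captured share divided by the library's overall share, vertical axis) in 5 Mb windows of chromosome 8 against distance in Mb from the centre of its strongest 500 kb window, for SS13BN libraries (upper panel) and SS libraries (lower panel). All 6 libraries peak at the same window, between 1.72 and 2.23, next to a window below 0.9 that holds the longest empty run, and stay above 1.17 over the 20 Mb that follow.

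The deposited scores place the peak within the same few megabases in every library. Each score counts captured fragments among 501 neighbours and sets them against the captured share of the whole chromosome. The highest score was 10.4 in SS13BN 1, 11.2 in SS13BN 2 and 6.17 in SS13BN 3, and it was 10.5 in SS 1, 9.13 in SS 2 and 7.28 in SS 3. In SS13BN 2 the highest score stands for 195 captured fragments, where the share of the chromosome gives 96.0 in 501, and in SS13BN 3 it stands for 86 against 46.1. The peak fragments start at 48359610, 47440176 and 45566938 in SS13BN 1 to 3 and at 48747491, 47346760 and 49921370 in SS 1 to 3. All 6 lie in the 5 Mb window of highest capture. The lowest scores also fell together. They ran from -6.35 to -9.65 in SS13BN and from -6.38 to -8.17 in SS, and in all 6 libraries they lay between 42400580 and 42494573, inside the same run captured in no library.

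Scores above 3 in all 6 libraries were found in 1937 rows, 5.23% of chromosome 8, against 3.82% of the rows of the other chromosomes. They formed 6 blocks of at least 20 rows, and the longest, from 45223455 to 50315677, spans 5092 kb with 1215 rows. The next were 1404 kb from 62326749 to 63730333 and 882 kb from 128276074 to 129158240. Scores below -3 in all 6 libraries were found in 1823 rows, 4.92% of chromosome 8, against 3.93% of the rows of the other chromosomes. They formed 8 blocks of at least 20 rows, of which the longest ran from 41447636 to 43144626. The score limit of 3 was chosen after the values were seen.

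Single windows of 500 kb were then called contact windows in a strain when capture there exceeded the overall share in all 3 of its libraries. Each library was judged by a one-sided exact binomial test, adjusted over all 5332 windows by the Benjamini-Hochberg method, at a threshold of 0.05. This test takes fragments as independent and covers counting error within 1 library only, so the calls are descriptive. Judged singly, SS13BN 1 to 3 had 29, 43 and 10 such windows among the 265 of chromosome 8, where 8.36%, 12.1% and 3.26% of all windows passed. SS 1 to 3 had 30, 28 and 20, where 8.85%, 6.85% and 5.36% of all windows passed. Chromosome 8 exceeded the share over all windows in each library. With all 3 libraries required, 6 of 265 windows passed in SS13BN, 2.26%, where 1.58% of all windows passed. In SS 9 passed, 3.4%, where 1.86% of all windows passed. Both strains shared 5 windows, 1.89% of chromosome 8 against 0.713% of all windows. The stretch from 45 to 70 Mb held 5 of the 6 windows of SS13BN, 7 of the 9 of SS and 4 of the 5 shared ones, in 50 of the 265 windows. The stretch was itself chosen by high capture in these same libraries, so contact windows had to gather there. The rule asks for every library, so the poorest decides. Without SS13BN 3, SS13BN had 17 contact windows, 6.42%, where 5.23% of all windows passed. Without SS 3, SS had 15, 5.66%, where 3.71% of all windows passed. The excess over all windows depends on the rule. With the expectation set by fragment length, 0.755% of the windows of chromosome 8 passed in SS13BN, where 0.881% of all windows did, and in SS 1.89% passed, where 1.05% did. In 250 kb windows 0.189% passed in SS13BN, where 0.301% of all did, and 0.566% in SS, where 0.414% did.

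The strongest shared window lay from 48000001 to 48500000. Of its 92 fragments, 28, 45 and 19 were captured in SS13BN 1 to 3 and 32, 28 and 26 in SS 1 to 3. This is 2.74 ± 0.361 times (SD, n = 3) the overall share in SS13BN and 2.75 ± 0.340 times (SD, n = 3) in SS, and the libraries of both strains overlap. It ranked 12 among the 5332 windows by mean relative capture.

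The window from 62500001 to 63000000 came next, about 14.5 Mb farther along. It had 33, 44 and 22 of 110 fragments captured in SS13BN 1 to 3 and 35, 29 and 36 in SS 1 to 3, which is 2.53 ± 0.425 times (SD, n = 3) in SS13BN and 2.66 ± 0.0892 times (SD, n = 3) in SS. The 3 SS values lie within the range of the SS13BN values. The window from 46500001 to 47000000, in the same block of high scores as the strongest one, had 29, 41 and 21 of 102 captured in SS13BN 1 to 3 and 35, 27 and 28 in SS 1 to 3. Its relative capture was 2.51 ± 0.312 (SD, n = 3) in SS13BN and 2.58 ± 0.243 (SD, n = 3) in SS.

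The other 2 shared windows were weaker. The window from 47500001 to 48000000 adjoins the strongest one and reached 2.15 ± 0.161 times (SD, n = 3) in SS13BN and 2.02 ± 0.190 times (SD, n = 3) in SS. The window from 115500001 to 116000000 is the only shared one outside the 45 to 70 Mb stretch. It had 19, 26 and 19 of 86 fragments captured in SS13BN 1 to 3 and 21, 19 and 21 in SS 1 to 3, or 2.16 ± 0.397 times (SD, n = 3) in SS13BN and 2.08 ± 0.119 times (SD, n = 3) in SS. In all 5 windows the strains overlapped.

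Fragments of the shared windows were fewer and mostly longer than usual. The windows held 86 to 121 fragments, where the median window of chromosome 8 held 137, and their median fragment lengths ran from 2267 to 3894 bp against a median window value of 2326 bp. With the expectation set by fragment length, the windows at 62500001 and 46500001 passed in all 6 libraries, that at 48000001 in 5, that at 47500001 in 4 and that at 115500001 in 3. Mean relative capture against that expectation was 2.48 at 48000001, 2.35 at 62500001, 2.35 at 46500001, 1.99 at 47500001 and 1.93 at 115500001. Per base instead of per fragment, the same windows reached 1.83, 2.08, 1.93, 1.85 and 1.33 times the overall level, and none of them passed in all 6 libraries.

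**Figure D3:**
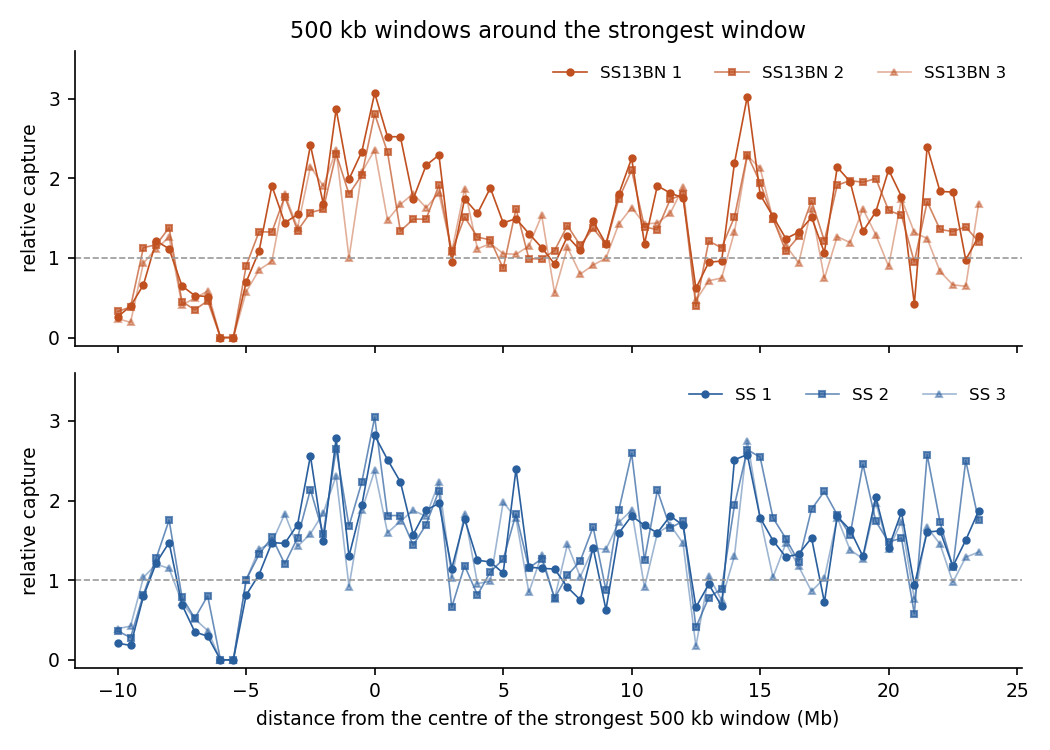
Relative capture in 500 kb windows of chromosome 8 (vertical axis) against distance in Mb from the centre of the strongest window, for SS13BN libraries (upper panel) and SS libraries (lower panel). About 6 Mb before the strongest window, 2 adjoining windows are at 0 in all 6 libraries, and the windows at 0 and 14.5 Mb exceed 2.2 in all 6.

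Windows that passed in 1 strain alone were mostly high in the other strain too. The only one of SS13BN alone, from 45500001 to 46000000, had a relative capture of 2.41, 1.57 and 2.15 in SS13BN 1 to 3 and 2.56, 2.14 and 1.58 in SS 1 to 3. It failed in SS 3 alone, with an exact binomial adjusted p of 0.170. The 4 of SS alone start at 50500001, 58000001, 116500001 and 53500001. That at 50500001 had 2.29, 1.91 and 1.82 in SS13BN 1 to 3 and 1.96, 2.12 and 2.23 in SS 1 to 3, and failed in SS13BN 3 alone with an exact binomial adjusted p of 0.0980. That at 58000001 likewise failed in SS13BN 3 alone, at 1.63. The last 2 failed in both SS13BN 1 and SS13BN 3. That at 116500001 had 1.51, 1.67 and 1.45 in SS13BN 1 to 3 and 1.81, 1.87 and 1.88 in SS 1 to 3. That at 53500001 had 1.49, 1.62 and 1.04 in SS13BN 1 to 3 and 2.40, 1.83 and 1.78 in SS 1 to 3. In these 2 windows all SS13BN values lay below all SS values. Both were chosen as passing in SS and failing in SS13BN, which favours this order. Of all windows, 3.55% had it after scaling. SS13BN 3 is the library with the fewest captured fragments on chromosome 8.

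**Figure D4:**
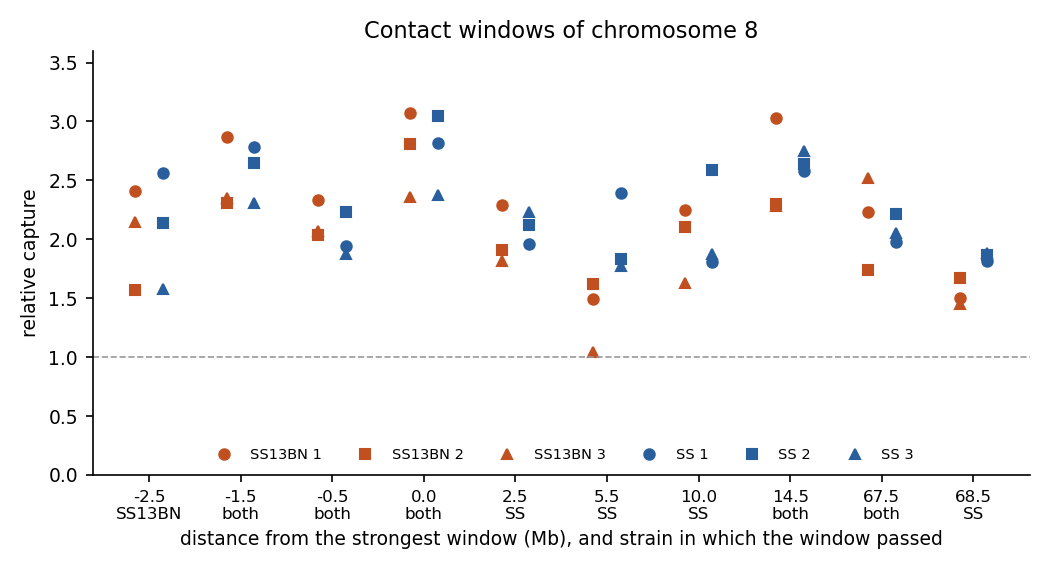
Relative capture (vertical axis) of the 10 contact windows of chromosome 8 in each library, SS13BN libraries to the left of SS libraries within each window. The horizontal axis gives the distance from the strongest window in Mb and the strain in which all 3 libraries passed. The window 5.5 Mb away passed in SS alone, which favours lower SS13BN values. There these, 1.04 to 1.62, all lie below the SS values, 1.78 to 2.40. At the 5 shared windows the strains overlap.

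Windows chosen in 1 strain stood high in the libraries of the other, which had no part in the choice. The 9 contact windows of SS, counted as one, had a relative capture of 2.28, 2.02 and 1.88 in SS13BN 1 to 3, against 1.08, 1.07 and 1.03 for the other windows of chromosome 8 in the same libraries. The 6 contact windows of SS13BN had 2.44, 2.47 and 2.14 in SS 1 to 3, against 1.04, 1.06 and 1.06 for the others.

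Some stretches of chromosome 8 gave no captured fragment in any library. The longest ran from 41793142 to 43121237, over 1328 kb and 390 fragments in a row. It lies about 5 Mb before the strongest contact window. The 100 fragments before it had a relative capture of 1.11, 0.976 and 1.26 in SS13BN 1 to 3 and 0.729, 1.50 and 1.09 in SS 1 to 3, and the 100 after it had 0.908, 1.09 and 0.799 in SS13BN 1 to 3 and 0.810, 1.10 and 1.51 in SS 1 to 3. Within 100 fragments on both sides, capture in single libraries thus ran from 0.729 to 1.51 times the overall level. Farther before the run capture was lower. Another run captured in no library, of 70 fragments, lies from 41138551 to 41416572. The 500 kb windows at 40500001 and 41000001 had a mean relative capture of 0.618 and 0.460.

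In all, chromosome 8 had 15 runs of at least 50 fragments captured in no library, which held 4.59% of its fragments, against 3.82% on the other chromosomes. The next longest were 918 kb from 78797429 to 79715344, with 204 fragments, and 529 kb from 10371807 to 10900766, with 164. A further 178 fragments, with a median length of 392 bp, lay in 250 kb from 15543400 to 15793789. Whether reads from these fragments could be placed on the genome was not tested, so an empty run is not shown to lack contacts.

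By the same binomial rule turned to low values, 6 of 265 windows were depleted in all 6 libraries, 2.26%, where 1.89% of all windows were. Those at 42000001, 42500001 and 79000001 had no captured fragment at all. The window at 106000001 had 2, 1 and 1 of 134 fragments captured in SS13BN 1 to 3 and 5, 0 and 0 in SS 1 to 3. The window at 38000001 had 5, 11 and 4 of 193 captured in SS13BN 1 to 3 and 5, 7 and 9 in SS 1 to 3, which is 0.275 ± 0.0468 times (SD, n = 3) the overall share in SS13BN and 0.322 ± 0.0980 times (SD, n = 3) in SS. Leaving out the windows with no capture at all, 3 depleted windows remained.

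The median window of chromosome 8 had a mean relative capture of 1.10, against 0.990 on the other chromosomes. Of its 265 windows, 74 lay above 1 in all 6 libraries, 27.9% against 22.6% elsewhere, and 44 lay below 1 in all 6, 16.6% against 25.4%. Of the 50 windows from 45 to 70 Mb, a stretch chosen by its high capture, 29 lay above 1 in all 6 libraries and 1 lay below.

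Most captured fragments were captured in 1 library only. Of the 37057 fragments, 14615 (39.4%) were captured in at least 1 library, against 36.9% on the other chromosomes, and 611 (1.65%) were captured in all 6, against 1.47%. Of the fragments captured at all, 53.8% were captured in a single library and 4.18% in all 6, against 54.9% and 3.99% on the other chromosomes. Fragments captured in both of 2 libraries were 2.43 to 3.83 times as many as the product of both libraries' shares gives, over the 15 pairs of libraries. On the other chromosomes this ratio ran from 2.52 to 3.98 and was higher than on chromosome 8 in each of the 15 pairs. The ratio divides by the captured shares, which were higher on chromosome 8 in every library, so it does not rank how often captures recur. In the pair with the highest ratio on chromosome 8, SS13BN 3 and SS 3, 1680 fragments were captured in both. These were 49.3% of the 3410 captured in SS13BN 3 and 35.2% of those captured in SS 3. On the other chromosomes the same pair gave nearly the same shares, 47.1% and 34.8%. The 611 fragments captured in all 6 libraries had a median length of 5024 bp, against 1916 bp for those captured in none. The stretch from 45 to 70 Mb held 172 of them, 28.2%, and in the 5 shared contact windows 29 of 511 fragments, 5.68%, were captured in all 6 libraries. Both the stretch and these windows were chosen by high capture in these same libraries, which by itself raises these shares.

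Capture increased with fragment length on chromosome 8 as on the others. In 5 classes of equal size by length, the shortest fragments, up to 573 bp, were captured at 6.95% ± 1.45 (SD, n = 6) on chromosome 8, and the longest, from 5539 bp, at 18.7% ± 4.65. The excess over the other chromosomes was present at both extremes. It was 1.13 ± 0.0629 times (SD, n = 6) in the shortest class and 1.13 ± 0.0211 times in the longest, with all 6 libraries above 1 in both. In the middle class, from 1550 to 2935 bp, it was 1.03 ± 0.0297 times, with values from 0.989 to 1.06. Along the chromosome, mean relative capture and median fragment length of a window had a Spearman correlation of 0.511 over 265 windows, and 0.415 with the expectation set by fragment length. Neighbouring windows are not independent, so no p is given.

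Between the strains, no difference in contacts with chromosome 8 passed a test. Of all captured fragments outside chromosome 13, 5.43%, 5.36% and 5.12% lay on chromosome 8 in SS13BN 1 to 3 and 5.19%, 5.30% and 5.28% in SS 1 to 3. The means were 5.30% ± 0.162 (SD, n = 3) in SS13BN and 5.25% ± 0.0601 (SD, n = 3) in SS. They differed by 0.0489 percentage points (exact permutation test, two-sided, p = 0.7). With 3 libraries a strain, this test cannot go below 0.1. Without SS13BN 1 the difference turned to -0.0125. In a limma fit over the 20 chromosomes, in which 0.0% passed, chromosome 8 had a log2 difference (SS13BN minus SS) of 0.01 (95% half-width 0.06; limma adjusted p = 0.953), a ratio of 1.01 with an interval from 0.969 to 1.05.

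Single windows of 500 kb gave no called difference on chromosome 8. Captured fragments were scaled to the mean library total and tested with limma on log2(value + 1), over the 5296 windows with a mean of at least 1. Where captured fragments are few, this scale makes a fold change too small. Of 262 windows tested on chromosome 8, 0 passed adjusted p 0.05, as of all windows (0.0%), and the lowest limma adjusted p, rounded, was 0.999. Before adjustment, 10 of them had p under 0.05, 3.82% against 3.02% of all windows, 5 higher and 5 lower in SS13BN. The median 95% half-width on chromosome 8, not adjusted for the number of windows, was 0.49 on the log2 scale, a ratio of 1.41. Smaller differences were mostly not detectable. Larger ones could also miss the adjusted threshold, as the 3 windows below did, so they are not shown to be absent.

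The 3 windows with the smallest p did not pass. The window from 101500001 to 102000000 had 18, 22 and 15 of 123 fragments captured in SS13BN 1 to 3 and 8, 5 and 16 in SS 1 to 3. The log2 difference, SS13BN minus SS, was 0.97 with an SE of 0.31 (limma adjusted p = 0.999), and the strains overlap after scaling. The window from 88000001 to 88500000 had 4, 15 and 4 of 167 captured in SS13BN 1 to 3 and 14, 13 and 15 in SS 1 to 3. There the log2 difference was -1.06 with an SE of 0.34 (limma adjusted p = 0.999), and all scaled SS13BN values lie below all SS values. The window from 71000001 to 71500000 had 12, 30 and 7 of 124 captured in SS13BN 1 to 3 and 23, 31 and 19 in SS 1 to 3, with a log2 difference of -0.78 and an SE of 0.26 (limma adjusted p = 0.999), and overlapping strains.

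All 3 SS13BN values lay above all SS values in 13 windows of chromosome 8, 4.96% against 4.25% of all windows, and below them in 6, 2.29% against 3.55%. With each library scaled to its total on chromosome 8, the split was 6 above, 2.29% against 3.44% of all windows, and 9 below, 3.44% against 4.17%, so the direction depends on the scaling. Of the contact windows, that at 53500001 had a log2 difference of -0.52 with an SE of 0.21 (limma adjusted p = 0.999). It had been chosen as passing in SS alone. The 5 shared contact windows had log2 differences of 0.00 at 48000001, -0.08 at 62500001, -0.04 at 46500001, 0.09 at 47500001 and 0.04 at 115500001, each with a 95% half-width between 0.40 and 0.44.

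In 5 Mb windows, a size added after the data were seen, 0 of the 27 windows of chromosome 8 passed and 0.0% of all 548 did. The 95% half-width had a median of 0.20 in log2 units, a ratio of 1.15. One window had an unadjusted p under 0.05, where 1.64% of all windows did. It lies from 100 to 105 Mb, with a relative capture of 1.12, 1.02 and 1.10 in SS13BN 1 to 3 and 0.885, 0.888 and 0.895 in SS 1 to 3, and it holds the 500 kb window at 101500001. It was the only one in which all SS13BN values lay above all SS values, where 2.37% of all 5 Mb windows did so, and in none did they all lie below, where 2.37% of all did. Here the log2 difference was 0.28 with an SE of 0.09 (limma adjusted p = 0.995). From 45 to 50 Mb, the highest window, the log2 difference was 0.03 (95% half-width 0.23; limma adjusted p = 0.995).

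**Figure D5:**
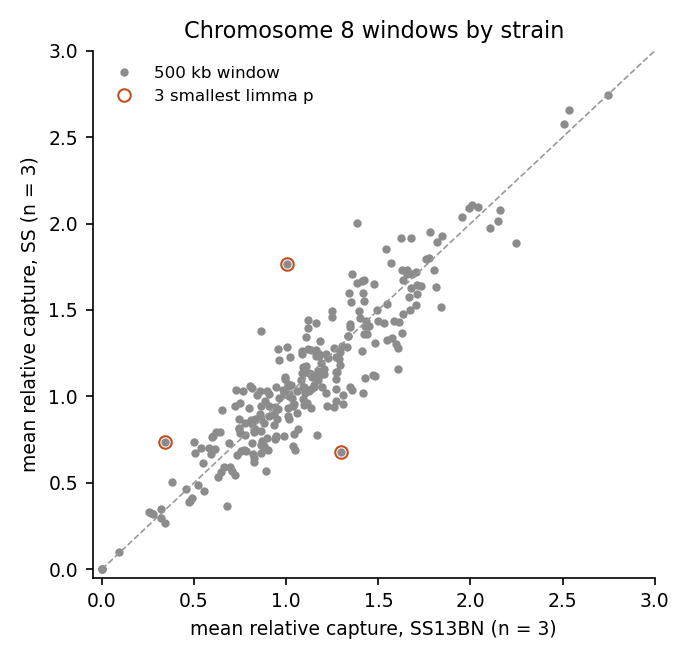
Mean relative capture of the 265 windows of 500 kb on chromosome 8 in SS13BN (horizontal axis, n = 3) and in SS (vertical axis, n = 3), with the line of equal values dashed. Windows of high and of low capture lie along the line in both strains, and the 3 windows with the smallest limma p, ringed, have an adjusted p of 0.999.

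The libraries differed more in the contrast of the profile than the strains did. The SD of log2 relative capture over the 5 Mb windows was 0.41, 0.33 and 0.30 in SS13BN 1 to 3 and 0.38, 0.41 and 0.29 in SS 1 to 3. SS13BN 3 and SS 3 had the flattest profile of their strain, and also the lowest of the highest scores. Captured fragments of chromosome 8 numbered 4089, 7102 and 3410 in SS13BN 1 to 3 and 4866, 4024 and 4768 in SS 1 to 3. The part of depth in the contrast of a profile was not tested. Spearman correlations over the 265 windows ran from 0.645 to 0.746 for the 6 pairs of libraries of 1 strain, from 0.706 to 0.792 for the 3 pairs of the same number in different strains and from 0.608 to 0.769 for the other 6 pairs. The ranges overlap, and windows are not independent replicates.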

How the data were processed

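For each library the authors deposited a headerless table that gives every EcoRI fragment a score. Per the submitters' processing notes, the build was rn5 and CASAVA 1.8 was used, with aligner, read filters and scoring program not given in the sources used here. Fragment coordinates are printed as deposited and may be off by 1 base in a browser. Outside chromosome 13, each score is the deviation of k, the captured fragments in a running window of 501, from its binomial mean, in units of the binomial SD, with p the captured share of the chromosome. The width was found from the scores on chromosome 8. At chromosome ends the window is cut off. Solving this gave each fragment's state, which rebuilt 100% of the windows in every library. That captured means at least 1 read is an assumption, and read numbers cannot be had from these scores. Chromosome 13 was left out.

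A fragment was assigned to a window by its midpoint. Relative capture is captured fragments over those that the library's share outside chromosome 13 gives, and for chromosome 8 as a whole, over those that the share of the other chromosomes gives. The length expectation used 20 classes of fragment length. The tests were limma 3.58.1 with an intensity trend in R 4.3.3, exact binomial calls, and exact permutation or sign-flip tests over libraries, with scipy 1.17.1, pandas 2.3.3 and numpy 2.4.6 in Python 3.11.15, and figures by matplotlib 3.10.9. The scripts were tested on simulated data. Alternatives covered window size, pseudocount, filter, scaling, expectation, threshold, replicate number as a block and single libraries left out.

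Named windows are the shared contact windows, the 5 lowest shared depleted windows, the contact windows of 1 strain and the 3 windows with the smallest limma p. The chromosome, windows and rules were chosen with earlier results of these data known. No rn5 genome or annotation was used here.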

Additional observations from a re-analysis of the deposited data

How the results depend on the processing

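The excess of chromosome 8 over the other chromosomes was 1.05 to 1.12 in single libraries and kept its direction and its exact p with fragment length, long fragments, chromosome X, the per-base scale or empty runs changed. With any 1 library left out it was 1.08 to 1.09, with an exact sign-flip p of 0.0625, the smallest that 5 libraries allow. Without the stretch from 45 to 70 Mb it was 0.999. This alternative, the per-base scale, the removal of empty runs or empty windows and the 5 Mb test were chosen after seeing the data. The strain difference in the share of chromosome 8 ran from -0.0125 to 0.141 percentage points with single libraries left out, of which only the fit without SS13BN 1 changed its sign.

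Counts of contact windows depended on the rule, and the cause was not tested. With the expectation set by fragment length, 2 passed in SS13BN, 5 in SS and 2 in both strains (0.755%, 1.89% and 0.755%, where 0.881%, 1.05% and 0.338% of all windows did). With the expectation set by chromosome these counts were 3, 4 and 3 (all windows 0.9%, 1.18% and 0.413%). At an adjusted p under 0.01 they were 0, 4 and 0 (all windows 0.356%, 0.806% and 0.169%), with 3 depleted windows, 1.13% on chromosome 8 and over all windows. At an adjusted p under 0.1, 12 passed in SS13BN, 4.53% against 2.78% of all. In 250 kb windows the counts were 1, 3 and 0 (0.189%, 0.566% and 0.0%, against 0.301%, 0.414% and 0.103% of all), so chromosome 8 lay below all windows in SS13BN under the length, 0.01 and 250 kb settings, and in the shared count under the last 2 of these. In 1 Mb windows the counts were 7, 12 and 6 (5.26%, 9.02% and 4.51%, against 5.26%, 5.81% and 3.28% of all), with no excess in SS13BN. Per base 0 of the 265 windows were shared, where 22 of 5332 were shared over all chromosomes, so here too the shared count lay below all windows. Leaving out windows with no capture left 3 depleted windows. With single libraries left out, SS13BN had 7 to 17 and SS had 9 to 15. The highest counts were those without SS13BN 3 and without SS 3, where 5.23% and 3.71% of all windows passed.

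In the limma test of windows, 0 windows of chromosome 8 passed under each alternative tried. At an unadjusted limma p under 0.05 there were 8 to 13 in 500 kb windows. There were 22 of 516 in 250 kb windows, 8 of 132 in 1 Mb windows and 1 in 5 Mb windows. The shares on chromosome 8 ran from 3.02% to 6.06%, where 1.46% to 4.10% of all windows had such a p. With replicate number as a block, 0 windows passed. An unadjusted limma p under 0.05 was found in 11 of 262 windows of chromosome 8 and in 203 of all 5296. The difference in share was then 0.0489 (exact sign-flip p = 0.75, where 3 pairs allow 0.25 at best). Libraries of the same number deviated together at correlations of 0.0875, 0.130 and 0.0834 over all windows, where every library correlated best with its own number, and at 0.143, 0.110 and 0.181 over those of chromosome 8. The first set is not over 0.1 throughout and the second is, so the numbers are not settled as pairs, and the block changed no call. Of 45 alternative values for the 15 named contact and depleted windows, none crossed 1, and 8, all in 1 Mb windows, moved by more than the spread between libraries. Among these the window at 106000001 reached 0.391 and that at 79000001 reached 0.317.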
